A study of Mus musculus with 22 samples.

Results

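Cldn5, Pecam1, Flt1, Kdr, Tek, Slco1a4, Abcb1a, Mfsd2a, Slc2a1 and Ly6c1 are 10 genes of brain and spinal cord endothelium and of the blood-brain barrier. They were taken by symbol, 10 of the 24060 gene rows in the deposited count tables, and each was read in all 22 libraries. RNA came from spinal cord of 11 young adult female mice. All carried mGFAP-Cre, a Cre recombinase under a mouse Gfap promoter, and RiboTag, an allele that adds a hemagglutinin (HA) tag to ribosomes of cells with Cre activity. The astrocyte label therefore rests on the cells in which the Gfap promoter had been active, and endothelial cells are not a labelled cell type of this study. Tagged ribosomes were immunoprecipitated from each animal's tissue (HA IP), and the RNA left unbound was kept as flow-through. Of the wild-type (WT) mice, 4 had no injury and 4 had a severe crush of the spinal cord at thoracic level 10 (WT SCI). A further injured group also carried STAT3-LoxP alleles, so that STAT3 is deleted in cells with Cre (STAT3-CKO SCI, n = 3). Injured tissue was the central 3 mm of the lesion, 14 days after the crush. Uninjured STAT3-CKO animals were not analysed here.

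Endothelial cells of the central nervous system line the vessels with a sheet sealed by tight junctions and move nutrients across it through dedicated transporters. Vascular endothelial growth factor and angiopoietin, partly supplied by astrocytes and pericytes, act on receptor kinases of these cells and control vessel growth and stability. The barrier opens after spinal cord injury, and new vessels grow in the lesion. The 10 genes cover these roles: Cldn5 encodes the main claudin of the tight junction and Pecam1 an adhesion molecule at endothelial contacts. Flt1 and Kdr encode vascular endothelial growth factor receptors and Tek the angiopoietin receptor. Slco1a4 encodes an organic anion transporter, Abcb1a a drug efflux pump, Mfsd2a the lysophosphatidylcholine transporter that carries docosahexaenoic acid and Slc2a1 the glucose transporter GLUT1, which astrocytes also make. Ly6c1 encodes a surface antigen of endothelium that some leukocytes also carry.

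The data split the 10 genes sharply by level. Mfsd2a and Slc2a1 had 6895 to 14076 counts in the uninjured HA IP libraries and were higher in HA IP than in flow-through, whereas the other 8 genes had 0 to 280 counts in every library. To show the start region of the abundant pair, the 250 bases before the start site in RefSeq (GRCm38.p6, the mm10 build) follow, 5′ to 3′ on the gene's strand. Capitals mark ACGTG, the core letters of the hypoxia response element, searched on both strands. The Mfsd2a window is chr4:122961189-122961438 on the minus strand and the Slc2a1 window chr4:119108495-119108744 on the plus strand.
Mfsd2a: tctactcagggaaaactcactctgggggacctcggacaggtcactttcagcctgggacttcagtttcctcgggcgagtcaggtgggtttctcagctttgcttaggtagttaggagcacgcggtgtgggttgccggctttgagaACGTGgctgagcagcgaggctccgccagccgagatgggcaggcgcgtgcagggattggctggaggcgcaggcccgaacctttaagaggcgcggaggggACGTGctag
Slc2a1: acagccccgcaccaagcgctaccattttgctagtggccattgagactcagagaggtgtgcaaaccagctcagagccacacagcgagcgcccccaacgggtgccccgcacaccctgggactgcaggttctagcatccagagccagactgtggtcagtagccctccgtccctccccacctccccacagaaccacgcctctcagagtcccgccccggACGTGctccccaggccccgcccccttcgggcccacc
Of 32851 promoters of this length, 16.6% held ACGTG. The 10 windows found for 9 members held it in 2 cases, those printed, with 2 matches for Mfsd2a and 1 for Slc2a1. TTCNNNGAA, the palindrome that STAT proteins bind, also searched on both strands, was in 7.02% of all promoters and in 0 of these 10 windows. Pecam1 has no entry. The Abcb1a window, chr5:8566841-8567090, lies upstream of and apart from the gene span given below, and the windows of Ly6c1 overlap each other. The windows of Slc2a1 and Kdr and 1 window of Ly6c1 reach into the gene spans given below. A match describes the letters only.

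Library totals were 31292491 to 59337089 counts in HA IP and 3898755 to 11242654 in flow-through. In WT SCI libraries 89.0% to 96.2% of all counts fell on Rn45s, a ribosomal RNA gene. Outside Rn45s, Lars2 and Mir6236, rows that ribosomal RNA reads can reach, uninjured HA IP libraries held 26934866 to 51571785 counts and WT SCI HA IP libraries 620265 to 2691494. The flow-through of WT SCI animals held 91626 to 615302. STAT3-CKO SCI libraries held 2496641 to 17348247 in HA IP and 460759 to 4022328 in flow-through. Ribosomal content and depth outside these rows thus differed between the injured genotypes too, with little overlap. Sums and pooled levels below are counts scaled to the total of this remainder, as CPM. The summed level of 10 astrocyte markers was 26660 to 35540 CPM in uninjured HA IP against 1726 to 2042 CPM in its flow-through. In HA IP, the level of Stat3, the deleted gene, was 26.3 to 66.1 CPM in the WT SCI and 7.85 to 12.3 CPM in the STAT3-CKO SCI libraries, on the scale of the HA IP fit, with no overlap.

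The 2 fractions of an animal were not independent in the deposited table. In each animal, 8963 to 16320 genes had a flow-through count, and in 0 to 3 of them it exceeded the HA IP count of the same animal, by 15 counts at most. Between 396 and 1432 genes had the same non-zero count in both libraries of an animal. Set against the HA IP library of another animal of the same group, the flow-through count was higher in 109 to 12654 genes and identical in 30 to 547. HA IP totals were 4.52 to 9.36 times the flow-through totals. Whether the HA IP columns also hold the flow-through reads of the same animal was not tested. For the 8 low members, 46 of 88 pairs of gene and animal had a flow-through count, of which 18 equalled the HA IP count and 0 exceeded it. Their flow-through counts summed to 437, or 45.0% of the 971 in HA IP. Some values in HA IP are therefore also given after subtraction of each animal's flow-through counts, an alternative chosen after seeing the data. HA IP values without such a second value rest on deposited counts only.

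**Figure D1:**
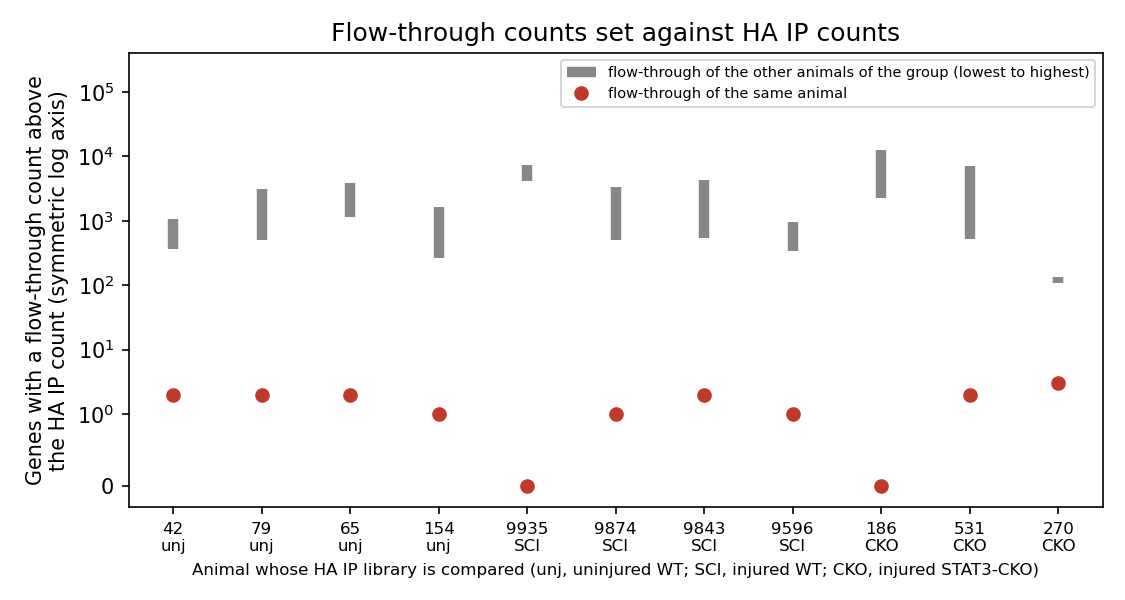
Number of genes in which a flow-through count exceeded the HA IP count of the animal on the x axis (y axis, symmetric log scale), for the flow-through of the same animal (points) and of the other animals of its group (bars, lowest to highest). The points stand at 0 to 3 genes and the bars between 109 and 12654.

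Mfsd2a (chr4:122946850-122961188, minus strand) was the member with the strongest difference between fractions. Coordinates here and below are GENCODE vM21 gene spans on GRCm38. Its raw HA IP counts were 10777, 7196, 6895 and 8211 in the uninjured animals, and the flow-through counts 190, 133, 86 and 228. Scaled to 1 set of library sizes over the 22 libraries (TMM-scaled CPM), these were 35.3, 41.7, 46.9 and 31.8 CPM in HA IP against 3.01, 5.58, 4.69 and 4.59 CPM in flow-through. The groups did not overlap. In the fit of the uninjured libraries the log2 difference was 3.23 ± 0.21 (SE), with an adjusted p of 7.645e-07 by edgeR's quasi-likelihood test with Benjamini-Hochberg adjustment over all genes tested, which holds for every adjusted p below. The HA IP level was higher in 4 of 4 animals, and after subtraction the difference was 3.48 ± 0.20.

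In the WT SCI libraries, Mfsd2a stood at 25.8, 53.2, 23.2 and 16.7 CPM in HA IP and at 9.97, 3.34, 1.27 and 8.17 CPM in flow-through. All HA IP libraries again lay above all flow-through libraries, with 72 to 427 counts against 2 to 28. The log2 difference was 2.29 ± 0.60 (edgeR adjusted p = 0.0238). By edgeR it was not called without the HA IP library of animal 9874 (1.81, adjusted p = 0.0947) or without the flow-through library of 9874 (2.15, adjusted p = 0.0801) or 9843 (2.00, adjusted p = 0.0852), and was 2.50 after subtraction (adjusted p = 0.0115). The STAT3-CKO SCI libraries had 24.1, 44.1 and 25.0 CPM in HA IP and 1.44, 5.10 and 1.74 CPM in flow-through. There the difference was 3.50 ± 0.47 (edgeR adjusted p = 0.0001496) and 3.73 after subtraction.

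Slc2a1 (chr4:119108711-119137983, plus strand) was also higher in HA IP, by less. Uninjured animals had 14076, 9549, 7225 and 13790 raw counts in HA IP and 852, 484, 365 and 849 in flow-through. In TMM-scaled CPM these were 46.2, 55.4, 49.1 and 53.4 in HA IP against 13.5, 20.3, 19.9 and 17.1 in flow-through, without overlap. The log2 difference was 1.62 ± 0.16 (edgeR adjusted p = 1.035e-05) and 1.83 after subtraction. In the WT SCI libraries it stood at 48.1, 34.4, 21.6 and 20.6 CPM in HA IP and at 6.65, 8.68, 22.3 and 11.4 CPM in flow-through, so that the flow-through library of animal 9843 lay above 2 HA IP libraries. The difference of 1.15 ± 0.47 did not pass in the fit of these 8 libraries (edgeR adjusted p = 0.163), nor after subtraction (1.28, adjusted p = 0.123); in the fit of all 22 libraries it was 1.28 (adjusted p = 0.00972). STAT3-CKO SCI animals had 41.4, 45.1 and 52.6 CPM in HA IP and 18.4, 13.3 and 21.5 CPM in flow-through. Their difference was 1.30 ± 0.31 (edgeR adjusted p = 0.00933) and 1.49 after subtraction. By edgeR it was not called without the flow-through library of animal 531 (1.16, adjusted p = 0.0805).

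**Figure D2:**
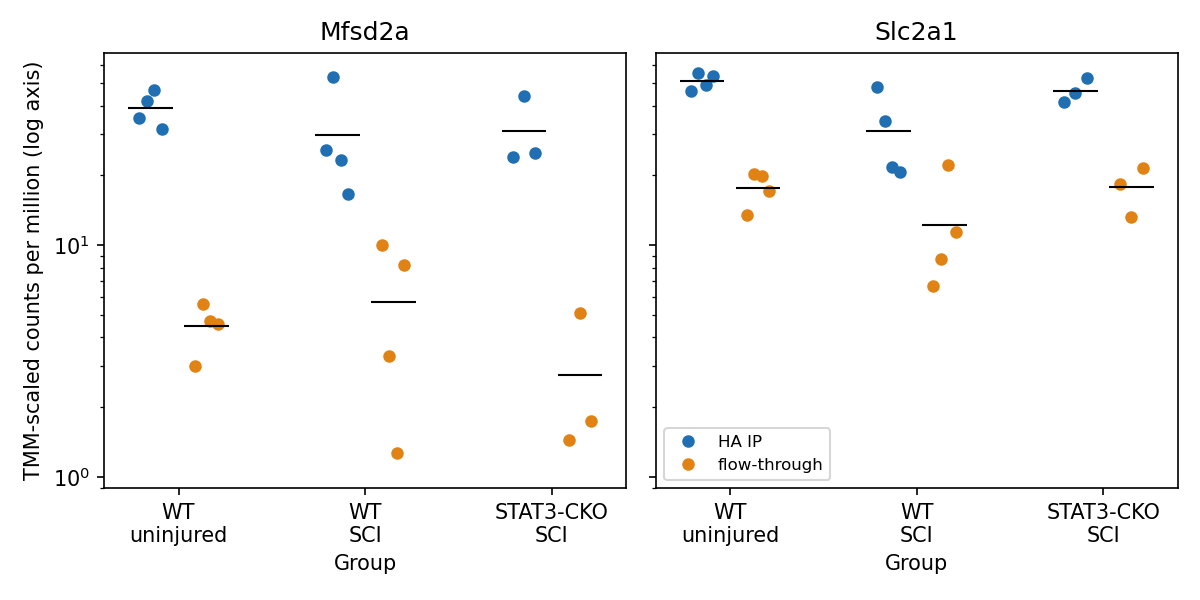
Mfsd2a and Slc2a1 in each of the 22 libraries as TMM-scaled CPM (y axis, log scale), by condition and fraction on the x axis, with 1 point per library and lines for the group mean. Uninjured HA IP points lie at 31.8 to 46.9 CPM for Mfsd2a and at 46.2 to 55.4 CPM for Slc2a1, above the flow-through points.

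Of the members, 3 passed the low-count filter in the uninjured comparison of fractions and 2 were higher in HA IP. Of all genes tested, 26.4% were higher in HA IP. In WT SCI 1 of 2 tested members was higher (all genes 4.09%), and in STAT3-CKO SCI 2 of 5 (all genes 7.12%). The tested members were those with enough counts to pass. Slco1a4, the third one tested in uninjured cord, had a log2 difference of −1.44 (edgeR adjusted p = 0.333). In STAT3-CKO SCI animals, Cldn5 had −1.99 (adjusted p = 0.359), Flt1 −1.21 (adjusted p = 0.361) and Kdr 0.80 (adjusted p = 0.735) by the same edgeR test.

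**Figure D3:**
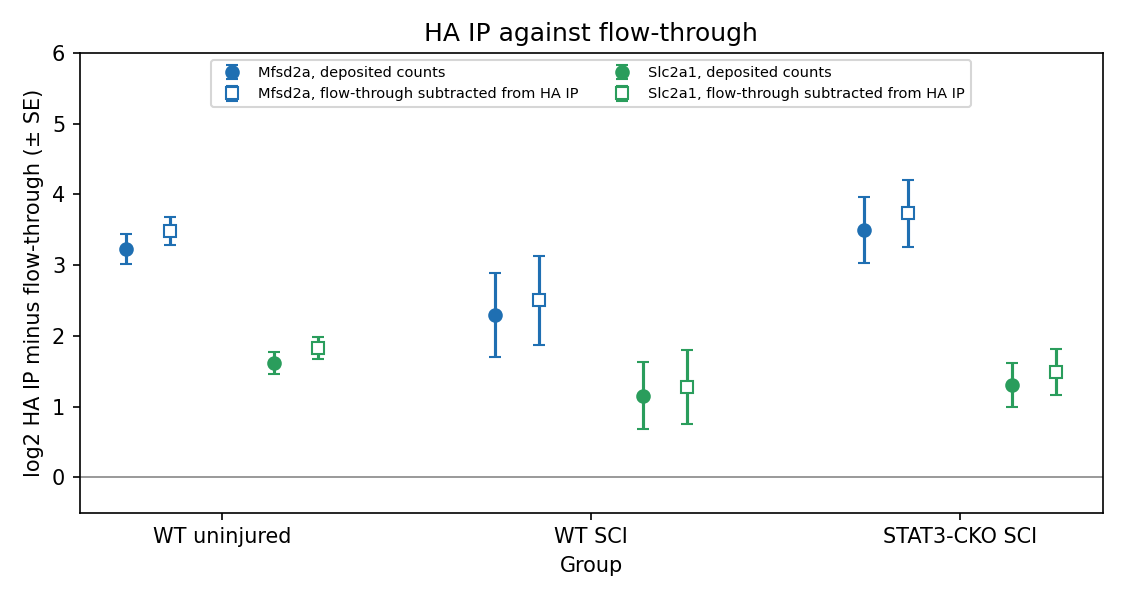
Log2 difference of HA IP minus flow-through with its SE (y axis) for Mfsd2a and Slc2a1 in each group (x axis), from deposited counts (filled points) and after subtraction of the animal's flow-through counts (open squares). On deposited counts Mfsd2a lies at 3.23, 2.29 and 3.50 and Slc2a1 at 1.62, 1.15 and 1.30.

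In CPM outside the 3 ribosomal rows per kilobase of exon, Mfsd2a had the highest median level of the 10 genes in uninjured HA IP, 97.4 (81.1 to 114), and Slc2a1 the next, 82.3 (76.5 to 87.4). The ranges of this pair overlapped. Ly6c1 followed at 0.153, and Flt1 was lowest with 0.0126. In uninjured flow-through the order of the first pair was turned, with a median of 33.5 for Slc2a1 and 13.1 for Mfsd2a, without overlap, ahead of 0.743 for Ly6c1. After injury the pair again led: in WT SCI HA IP Mfsd2a had 51.7 (36.5 to 105) and Slc2a1 37.4 (28.9 to 61.6), and in STAT3-CKO SCI HA IP Slc2a1 had 68.1 and Mfsd2a 67.2, with overlapping ranges in both groups.

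In HA IP, neither gene of the abundant pair passed the test between WT SCI and uninjured cord. Slc2a1 differed by −0.71 ± 0.28 on the log2 scale, which did not pass (edgeR adjusted p = 0.0644). Animal 9935, at 48.1 CPM, lay inside the uninjured range and the other 3 below it. Without the HA IP library of 9935 the difference was −0.98 (edgeR adjusted p = 0.00854), with the 3 ribosomal rows left out of the fit −0.77 (adjusted p = 0.0433), and after subtraction −0.81 (adjusted p = 0.0655). The authors' deposited table gave −0.77 with a false discovery rate of 0.0371. Mfsd2a differed by −0.37 ± 0.33 (edgeR adjusted p = 0.422), and by −0.83 without animal 9874, its highest WT SCI library (adjusted p = 0.0456). Scaled to the remainder in place of TMM, Slc2a1 had 268 to 306 CPM in uninjured and 101 to 216 CPM in WT SCI HA IP, without overlap, and Mfsd2a 182.5 to 256 CPM and 82.1 to 237 CPM, with overlap from animal 9874. In flow-through, Mfsd2a differed by 0.49 (edgeR adjusted p = 0.544) and Slc2a1 by −0.28 (adjusted p = 0.581). In bulk RNA, fewer cells of a type and less RNA per cell cannot be told apart.

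Between the injured genotypes 0 tests of this pair passed by edgeR or DESeq2, and 0 had an unadjusted p under 0.05. STAT3-CKO SCI minus WT SCI was 0.58 ± 0.30 for Slc2a1 (edgeR adjusted p = 0.336) and 0.06 for Mfsd2a (adjusted p = 0.957) in HA IP, and 0.48 (adjusted p = 0.620) and −1.04 (adjusted p = 0.513) in flow-through. Against uninjured cord, STAT3-CKO SCI HA IP had −0.13 for Slc2a1 (edgeR adjusted p = 0.842) and −0.32 for Mfsd2a (adjusted p = 0.654); the same uninjured libraries serve as controls for both injured groups. Whether the injury effect differed between fractions was tested in the fit of the 22 libraries. The interaction was −0.68 ± 0.60 for Mfsd2a (edgeR adjusted p = 0.639) and −0.25 ± 0.44 for Slc2a1 (adjusted p = 0.881), beside a median of 0.26 over all genes. For the genotype effect it was 1.11 ± 0.69 (edgeR adjusted p = 0.891) and 0.10. By edgeR, 0 of 8 tested members passed either interaction, 0 had an unadjusted p under 0.05, and DESeq2 called 0; 4.71% and 0.0264% of all genes passed.

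The junction genes were near the limit of detection. Cldn5 (chr16:18776847-18778262, plus strand) had 2, 0, 4 and 4 raw counts in uninjured HA IP and 0, 0, 0 and 2 in flow-through. It had 0 counts in all 8 WT SCI libraries, and 0, 7 and 24 in HA IP and 0, 7 and 7 in flow-through of STAT3-CKO SCI animals. Pecam1 (chr11:106654217-106750628, minus strand) had 43, 0, 2 and 14 counts in uninjured HA IP and 12, 0, 2 and 5 in flow-through. It too had 0 counts in all 8 WT SCI libraries, and its STAT3-CKO counts came from 1 animal, 270, with 16 in HA IP and 15 in flow-through. A count of 0 in WT SCI allows up to 0.488 CPM in the pooled HA IP and 2.35 CPM in the pooled flow-through, at 3 counts. Pooled uninjured levels were 0.0646 CPM for Cldn5 and 0.381 CPM for Pecam1 in HA IP, and 0.0813 and 0.772 CPM in flow-through, so a fall of either gene after injury was not detectable at this depth. In STAT3-CKO SCI flow-through Cldn5 reached 2.72 CPM (exact 95% binomial interval 1.49 to 4.57), or 6.23 CPM (2.51 to 12.8) without animal 270. The latter value rests on the 7 counts of animal 531 alone, which had the same 7 in HA IP. Both intervals cover counting error only. For Cldn5 in STAT3-CKO SCI against uninjured cord, the authors' deposited log2 values were 3.58 in HA IP (false discovery rate 0.0229) and 5.27 in flow-through (0.0111). The low-count filter removed Cldn5 from the fits within a fraction, and without it edgeR called Cldn5 in that flow-through comparison.

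Flt1 (chr5:147561604-147726011, minus strand) was the low member with the most counts in injured libraries. Uninjured animals had 13, 2, 7 and 4 raw counts in HA IP and 1, 2, 1 and 4 in flow-through. The WT SCI animals had 4, 6, 6 and 0 in HA IP and 1, 3, 6 and 0 in flow-through, from remainders far smaller than the uninjured ones. The STAT3-CKO SCI animals had 8, 19 and 280 in HA IP and 5, 5 and 133 in flow-through. The pooled level was 0.168 CPM (0.110 to 0.246) in uninjured HA IP, 2.60 CPM (1.49 to 4.22) in WT SCI and 11.7 CPM (10.4 to 13.1) in STAT3-CKO SCI HA IP, with exact 95% intervals. In flow-through it was 0.325 CPM (0.140 to 0.641), 7.82 CPM (3.75 to 14.4) and 27.8 CPM (23.4 to 32.7). Animal 270 supplied 280 of the 307 and 133 of the 143 STAT3-CKO counts, and without it the pooled levels were 3.04 CPM (2.01 to 4.43) in HA IP and 8.90 CPM (4.27 to 16.4) in flow-through. Animals ranged from 0.0638 to 0.260 CPM in uninjured HA IP, from 0 to 6.45 CPM in WT SCI, where the 0 of animal 9596 overlapped, and from 2.98 to 16.1 CPM in STAT3-CKO SCI, without overlap with uninjured.

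The low-count filter removed Flt1 from the comparisons within a fraction. Without the filter, Flt1 was higher in WT SCI than in uninjured HA IP by 4.58 ± 1.09 on the log2 scale (edgeR adjusted p = 0.0026) and in flow-through by 4.88 ± 1.05 (adjusted p = 7.215e-05). In STAT3-CKO SCI it was higher by 5.40 ± 1.08 in HA IP (edgeR adjusted p = 0.000896) and by 5.67 ± 0.94 in flow-through (adjusted p = 1.689e-07). Of all genes, 21.7% and 9.36% passed in HA IP and 24.3% and 13.6% in flow-through in these unfiltered fits. Without animal 270 the STAT3-CKO values were 4.21 (edgeR adjusted p = 0.022) in HA IP and 4.63 (adjusted p = 0.0084) in flow-through. After subtraction the HA IP difference was 3.65 ± 1.51 in WT SCI, which did not pass (edgeR adjusted p = 0.0983), and 5.04 ± 1.42 in STAT3-CKO SCI (adjusted p = 0.0312), or 3.77 without animal 270 (adjusted p = 0.174). The injured genotypes differed by 0.82 in unfiltered HA IP (edgeR adjusted p = 0.788). The authors' deposited table listed Flt1 at 4.60 (false discovery rate 0.0001555) and 5.39 (1.26e-05) in HA IP and at 4.90 (1.89e-05) and 5.64 (1.1e-07) in flow-through for the same contrasts with uninjured cord.

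**Figure D4:**
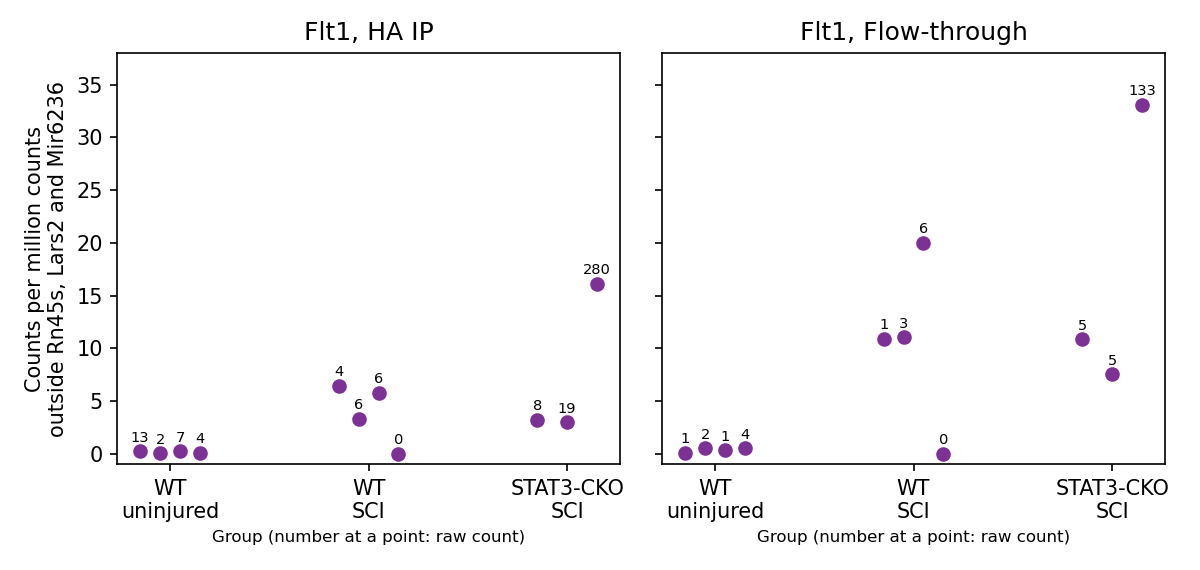
Flt1 level in each library as CPM outside the 3 ribosomal rows (y axis), by group on the x axis and fraction by panel, with 1 point per library and its raw count beside it. Uninjured points stay at or below 0.540 CPM, STAT3-CKO SCI points span 2.98 to 33.1 CPM, and animal 9596 is at 0 in both fractions.

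Kdr (chr5:75932827-75978458, minus strand), the main signalling receptor for vascular endothelial growth factor A, had 23, 15, 2 and 25 raw counts in uninjured HA IP and 1, 4, 0 and 1 in flow-through. In WT SCI HA IP it had 0, 17, 0 and 1 counts, 17 of 18 in animal 9874, and 0 in all 4 flow-through libraries. STAT3-CKO SCI animals had 22, 3 and 48 in HA IP and 0, 3 and 9 in flow-through. WT SCI minus uninjured HA IP was 3.11 ± 1.20 and did not pass (edgeR adjusted p = 0.0611), nor after subtraction (3.14, adjusted p = 0.1125). On deposited counts it passed without the HA IP library of 9935, 9843 or 9596, at 3.41, 3.50 and 3.57 (edgeR adjusted p = 0.0453, 0.0387 and 0.0333). Without 9874 the difference was −0.62 (edgeR adjusted p = 0.821). DESeq2 gave 3.08 (adjusted p = 0.0442), and the value in the authors' deposited table was 3.02 with a false discovery rate of 0.0472. In STAT3-CKO SCI the difference from uninjured was 3.36 (edgeR adjusted p = 0.0872), and between the injured genotypes 0.25.

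Tek (chr4:94739289-94874976, plus strand) had 9, 3, 1 and 4 raw counts in uninjured HA IP and 4, 0, 0 and 4 in flow-through. In WT SCI it had 2 counts in 1 HA IP library and 0 in the other 7 libraries, and in STAT3-CKO SCI 0, 1 and 26 in HA IP and 0, 1 and 8 in flow-through. The pooled HA IP level was 0.110 CPM (0.0640 to 0.176) in uninjured and 1.03 CPM (0.679 to 1.50) in STAT3-CKO SCI animals, of which animal 270 supplied 26 of 27 counts; without it the level was 0.113 CPM (0.00285 to 0.628). Tek was not tested within a fraction, since it did not pass the filter.

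Among the transporters of the low set, Slco1a4 (chr6:141805440-141856199, minus strand) had 75, 5, 0 and 24 raw counts in uninjured HA IP and 53, 1, 0 and 6 in flow-through. Its counts were uneven between animals: 75 of 104 uninjured HA IP counts came from animal 42. In WT SCI it had 4 counts in HA IP and the same 4 in flow-through of animal 9596 and 0 elsewhere, and in STAT3-CKO SCI 1, 0 and 44 in HA IP and 0, 0 and 29 in flow-through. WT SCI minus uninjured HA IP was 0.29 (edgeR adjusted p = 0.902); after subtraction, which leaves 0 counts in WT SCI, it was −5.12 (adjusted p = 0.3848), a fitted value that is no bound. Abcb1a (chr5:8660077-8748575, plus strand) had 15, 0, 2 and 8 raw counts in uninjured HA IP and 14, 0, 0 and 8 in flow-through. It had 2 counts in WT SCI HA IP, both also present in flow-through, and 1, 0 and 4 in STAT3-CKO SCI HA IP with 1, 0 and 2 in flow-through. Of its exonic windows of 50 bases, 16.3% also occur in Abcb1b, so the split of reads between this pair is uncertain. Abcb1b itself rose in WT SCI HA IP by 2.57 ± 0.75 (edgeR adjusted p = 0.016), at 2.62 ± 2.48 CPM (SD) against 0.414 ± 0.140 CPM. Pooled Abcb1a was 0.161 CPM (0.105 to 0.238) in uninjured and 0.325 CPM (0.0394 to 1.17) in WT SCI HA IP, with overlapping intervals.

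Ly6c1 (chr15:75044018-75048830, minus strand) had 15, 4, 6 and 24 raw counts in uninjured HA IP and 4, 1, 6 and 17 in flow-through. The WT SCI animals had 11, 1, 2 and 4 in HA IP and 0, 1, 2 and 4 in flow-through, so that 3 of the 4 had identical counts in both fractions. STAT3-CKO SCI animals had 1, 0 and 51 in HA IP and 1, 0 and 35 in flow-through. It was the 1 of 5 tested members that rose in WT SCI HA IP, by 4.26 ± 1.22 (edgeR adjusted p = 0.0149), beside 15.8% of all genes that rose. Animal 9935 supplied 11 of its 18 counts. It was not called without the library of uninjured animal 79 (4.05, edgeR adjusted p = 0.0525), and it did not pass the filter without uninjured animal 154, without WT SCI animal 9935 or after subtraction. The authors' deposited table gave 4.30 with a false discovery rate of 0.00399. Of its exonic windows, 21.5% also occur in Ly6c2, a gene of monocytes. The summed level of 12 microglia and macrophage markers, Ly6c2 among them, was 82.0 to 187 CPM in uninjured and 2746 to 11240 CPM in WT SCI HA IP; its part in the Ly6c1 and Flt1 differences was not tested.

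By edgeR, 0 of 5 tested members passed in HA IP between the injured genotypes (1.16% of all genes), with 0 by DESeq2 and 0 with an unadjusted p under 0.05. In STAT3-CKO SCI against uninjured HA IP it was 0 of 5 (9.78% of all genes), with 1 at an unadjusted p under 0.05, Kdr, and 0 by DESeq2. In flow-through only Mfsd2a and Slc2a1 were tested, and 0 of 2 passed in each comparison by edgeR or DESeq2 or at an unadjusted p under 0.05, against 31%, 0.118% and 13.9% of all genes. A single animal, 270, held most of the raw counts of the low members after injury. It supplied 493 of the 616 injured HA IP counts of the 8 genes (80.0%) and 238 of the 284 in flow-through (83.8%). Its remainder was also the deepest of the injured animals, 17348247 counts in HA IP and 4022328 in flow-through. The next deepest, that of animal 531, held 6375510 and 662593, so these shares are not shares of level. Summed over the 8 genes, levels were 0.891 to 3.78 CPM in uninjured HA IP. In WT SCI HA IP they were 3.72 to 24.2 CPM, with a narrow overlap with uninjured. STAT3-CKO SCI HA IP had 4.71 to 28.4 CPM, without overlap with uninjured. These sums rest on few of the 8 genes. Of 60 counts in WT SCI HA IP, Kdr and Ly6c1 held 18 each and Flt1 16. Of 556 in STAT3-CKO SCI HA IP, Flt1 held 307. Subtraction of flow-through counts left 37 of the 60 and 295 of the 556, and 202 of the 355 in uninjured HA IP.

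**Figure D5:**
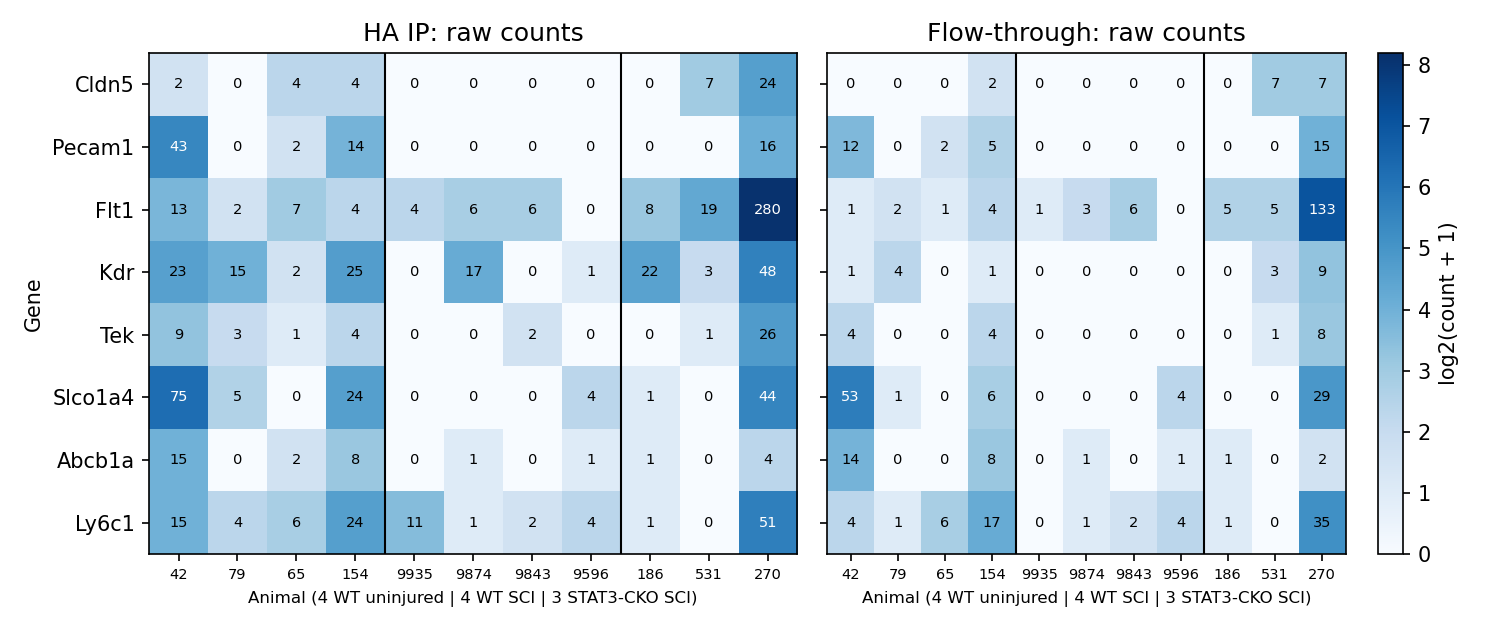
Raw counts of the 8 low members (rows) by animal (columns), HA IP on the left and flow-through on the right, with the count printed in each cell and colour for log2(count + 1). Cldn5 and Pecam1 are at 0 in all WT SCI libraries, and in HA IP animal 270 holds the highest injured count of each of the 8 genes.

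The members were read beside 28 other endothelial identity genes, 33 other genes of barrier transport, junctions and Wnt signalling, 22 angiogenic ligands, receptors and activation genes and 12 pericyte genes; Sox17 stands in the first and second list. In uninjured cord, 13 endothelial identity genes were tested between fractions, and 0 were higher in HA IP and 4 lower, beside 26.4% and 24.2% of all genes, with a median of −1.06 against 0.02 over all genes. At an unadjusted p under 0.05, 0 were higher and 5 lower by edgeR. Egfl7, a factor secreted by endothelium, was lower by 2.16 ± 0.76 (edgeR adjusted p = 0.0351). Their summed level was 23.5 to 30.8 CPM in HA IP and 56.2 to 73.3 CPM in flow-through, without overlap.

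The other barrier genes were mixed: of 23 tested in uninjured cord, 10 were higher and 6 lower in HA IP, with a median of 0.34 (all genes called either way 50.7%). Tjp1, the tight junction scaffold ZO-1, was higher by 1.74 ± 0.13 (edgeR adjusted p = 2.522e-06), and Slc3a2, the heavy chain of the large amino acid transporter, by 2.31 ± 0.23 (adjusted p = 1.22e-05). Apcdd1, a Wnt inhibitor, was higher by 3.29 ± 0.29 (edgeR adjusted p = 5.967e-06). Slc7a1, a cationic amino acid transporter, was lower by 1.56 ± 0.31 (edgeR adjusted p = 0.001734). Of 17 angiogenic genes, 7 were higher and 2 lower. The 50.7% also stands beside these and the pericyte counts below. Ligands were among the higher ones: Apln, apelin, by 3.44 ± 0.19 (edgeR adjusted p = 3.469e-07), Angpt1, which activates Tek, by 3.16 ± 0.29 (adjusted p = 7.331e-06), and Vegfa, the ligand of Flt1 and Kdr, by 1.24 ± 0.15 (adjusted p = 6.305e-05). The higher genes were not all ligands: after subtraction Vcam1 (5.32), Cxcr4 (4.25) and Aplnr (3.14) were also called higher. The ligands Vegfb (−0.14) and Vegfc (−0.91) were not called after subtraction. Plvap, which forms diaphragms of leaky endothelium, was lower by 1.54 ± 0.34 (edgeR adjusted p = 0.003258). Pdgfrb, a pericyte receptor, was higher by 3.09 ± 0.39 (edgeR adjusted p = 7.433e-05), 1 of 3 higher and 1 lower of 8 pericyte genes.

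After injury in WT HA IP, 4 of 16 tested endothelial identity genes rose and 0 fell, beside 26.7% of all genes called either way. Their median was 1.17 (all genes 0.00017). By unadjusted p, 6 were higher and 0 lower; after subtraction 2 of 11 rose, beside 20.6% of all genes called either way. Cd34, a surface sialomucin of endothelium that blood progenitors and fibroblasts also carry, rose by 4.56 ± 0.52 (edgeR adjusted p = 4.743e-06), with 0.721 ± 0.216 CPM (SD) in the 4 uninjured and 17.2 ± 8.24 CPM in the 4 injured animals. Vwf, Cd93 and Rasip1, named after their values were seen, were the others that rose, by 3.60, 4.76 and 1.98. In WT SCI HA IP, 11 of the 28 genes had 0 counts, among them Cdh5, the endothelial cadherin, with 18 counts in the uninjured libraries. At this depth 0 counts allow up to 0.488 CPM, so a rise of these genes could have gone undetected. In the same comparison 9 of 10 tested microglia and macrophage markers (median 3.81) and 4 of 5 fibroblast markers (median 2.45) rose. Their part in the differences of this and the barrier list was not tested. The list's sum of 850 counts there held 457 for Cd34 and 198 for Rasip1. Its summed level was 104 to 180.6 CPM in WT SCI, and 64.9 to 111 CPM in STAT3-CKO SCI HA IP, where Cdh5 had 36 counts.

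Of the 26 barrier genes tested in WT SCI HA IP, 5 rose and 3 fell, around a median of 0.02 and beside 26.7% of all genes called either way, which also stands beside the angiogenic and pericyte counts that follow. Axin2, a target of Wnt signalling, rose by 4.37 ± 0.48 (edgeR adjusted p = 3.062e-06), Slco2b1, an organic anion transporter, by 3.36 ± 0.41 (adjusted p = 1.011e-05) and Slc6a6, the taurine transporter, by 2.25 ± 0.37 (adjusted p = 0.0002015). Tfrc, the transferrin receptor, fell by 2.46 ± 0.53 (edgeR adjusted p = 0.002249). Of 17 angiogenic genes 3 rose and 3 fell, with a median of −0.86; after subtraction 1 rose and 3 fell of 16. Apln fell by 2.39 ± 0.41 (edgeR adjusted p = 0.0002838) and Vegfa by 1.99 ± 0.46 (adjusted p = 0.003441), with 10.3 ± 1.50 CPM (SD) in uninjured and 2.53 ± 1.68 CPM in injured animals. Vegfa also fell in flow-through, by 2.76 ± 0.82 (edgeR adjusted p = 0.01198). The receptor Flt1 and its ligand Vegfa thus had opposite signs in both fractions, the former only in fits without the filter. Plvap differed by 0.17 ± 0.80 (edgeR adjusted p = 0.894). Of the 10 tested pericyte genes 2 rose and 0 fell, with 2 higher and 1 lower at an unadjusted p under 0.05.

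In flow-through of WT SCI, 2 of 8 endothelial identity, 5 of 20 barrier, 5 of 15 angiogenic and 3 of 6 pericyte genes rose, and 0, 2, 2 and 0 fell, beside 31% of all genes called either way. Cd34, Axin2 and Slco2b1 rose there by 3.99, 4.00 and 4.17. Slco2b1 was lower in HA IP than in flow-through of WT SCI animals, by 1.83 ± 0.44 (edgeR adjusted p = 0.01361). The STAT3-CKO SCI animals, against the same uninjured libraries, had 2 of 16, 5 of 26, 4 of 17 and 2 of 10 genes higher in HA IP, and 1 lower, Tfrc, beside 9.78% of all genes called either way. Nrp1, a coreceptor for vascular endothelial growth factor, rose there by 2.07 ± 0.41 (edgeR adjusted p = 0.002136). Between the injured genotypes, where 1.16% of all genes passed in HA IP, 2 barrier genes were higher in STAT3-CKO SCI HA IP and 0 genes of the other 3 lists passed by edgeR; at an unadjusted p under 0.05 these 3 lists had 0, 6 and 2 genes higher and 2, 0 and 2 lower. Ly6a, a surface antigen of endothelium and other cells, was the larger of the 2, at 29.6 ± 13.9 (SD, n = 3) against 3.48 ± 4.21 CPM (SD, n = 4), a difference of 3.06 ± 0.65 (edgeR adjusted p = 0.02528), not called after subtraction (3.50, adjusted p = 0.0637). In flow-through 0 genes of the 4 lists passed between the genotypes by edgeR, beside 0.118% of all genes; by unadjusted p 0, 2, 1 and 2 were higher and 1, 1, 1 and 0 lower.

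Pearson correlation over the 11 libraries of a fraction was taken with the mean of the tested members' standardised log2 CPM. It is a description over libraries whose depth and ribosomal content also differ between groups. In HA IP the mean joins members whose WT injury differences had opposite signs, so it need not follow any single member. With 5 members in this mean and 4054 genes screened, the most correlated genes included Mapkap1 (r = 0.806), Usp47 (0.788), Timp3 (0.773) and Plbd2 (0.770). In flow-through, with Mfsd2a and Slc2a1 in the mean and 4218 genes screened, they were Park7 (0.869), Pvalb (0.843), Ndufa8 (0.832), Atpif1 (0.820) and Stard10 (0.812). Genes of the 4 lists were not among them.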

How the data were processed

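RNA of 22 libraries from 11 mice, HA IP and flow-through of each animal, was read from 2 of the 5 tables the authors deposited. Per the file headers, these hold raw counts per gene and library with no normalisation. Columns of log2 fold change, p-value and FDR from the authors' own comparisons stand beside the counts, per the file headers; only the members' values were taken from them. The 146 per-sample columns of the other 3 tables stayed out. The submitters' processing notes name CASAVA 1.8.2, edgeR and mm10, with no role; for the aligner, counting tool, annotation and strand setting nothing is given in the sources used here. Reads shared by close paralogs or overlapping genes can therefore not be assigned.

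Groups follow the genotype, injury and RNA type that the labels give, and the animal number in the titles pairs the fractions of 1 animal; their deviations from the group means correlated at 0.319 to 0.679 over 15142 genes. Libraries of a group differed by more than counting noise (lowest chi-square per degree of freedom 4.83). Within a fraction 1 fit held 11 libraries; HA IP against flow-through was fitted per condition, and interactions over 22 libraries. Genes passed filterByExpr, sizes were TMM-scaled, and edgeR 4.0.16 in R 4.3.3 tested contrasts with its quasi-likelihood F-test (two-sided); p was adjusted by Benjamini-Hochberg over all tested genes and read at 0.05. Within a fraction the p-values measure the spread between animals. The main fits between fractions and of the interactions held no animal term, so both libraries of an animal count there as separate units. The replicate block by animal, an alternative, is given for members only. The fits were tested on simulated data. Level intervals are exact (Clopper-Pearson, 95%), and a count of 0 was read as allowing 3 counts; both cover counting error only. Exon lengths and spans came from GENCODE vM21, and promoters from RefSeq.

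Alternatives were DESeq2 1.42.0, other scalings, no filter, thinning, the replicate block, each library left out and, chosen after seeing the data, subtraction of each animal's flow-through counts and unfiltered fits with subtraction or without animal 270, and pooled levels without it. The members and lists were chosen with earlier results of these data known. List genes are named by a fixed rule, up to 3 called genes per list, direction and comparison with a mean log2 CPM of at least 1, those with the smallest p first, plus Cdh5, Vegfa, Plvap, Pdgfrb, Stat3, Gfap, Ly6c2 and Abcb1b. Of these, the examples that show each group were described. A result that the rules took is not reported here. Rasip1, Vwf, Cd93, Cxcr4 and Esm1, and Slc3a2 in the interaction after subtraction, were chosen after their values were seen.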

Additional observations from a re-analysis of the deposited data

Results flagged for a closer look

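In 6 of 30 tested groups of 4 libraries, 1 library of a low member lay far from the other 3 by Dixon's test. Chance gives this in about 1 in 20 groups of continuous values, but not of sparse counts: 3 libraries at 0 and 1 above 0 meet it by construction, so 6 of 30 is no measure of excess. Kdr reached 1.92 CPM (17 raw counts) in WT SCI HA IP of animal 9874, where the next library had 0.0686 CPM. In uninjured flow-through, Kdr stood at 1.08 CPM outside the ribosomal rows (4 counts) in animal 79. Ly6c1 reached 3.58 CPM (11 counts) in WT SCI HA IP of animal 9935, against 0.349 CPM in the next library. Slco1a4 had 0.274 CPM (4 counts) in WT SCI HA IP and 6.50 CPM outside the ribosomal rows (4 counts) in flow-through of animal 9596, with 0 in the other 3 animals of either group. In uninjured flow-through of animal 42 Slco1a4 stood at 5.23 CPM outside the ribosomal rows (53 counts), against 0.760 CPM in the next. All of these rest on 53 counts or fewer.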

How the results depend on the processing

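Among alternative values of single members, 692 stayed on their side of the threshold, 10 passed newly, 5 no longer passed and 0 that had passed changed sign. Values that had not passed did change sign under some alternatives, mostly with 1 library left out: Kdr in WT SCI against uninjured HA IP turned from 3.11 to −0.62 without animal 9874, and Slco1a4 between fractions in uninjured cord from −1.44 to 0.61 without the flow-through library of animal 42. The count of members called in WT SCI against uninjured HA IP, 1 by edgeR, was 2 by DESeq2, 2 without a filter, 3 with the ribosomal rows left out, 0 after thinning to equal depth, 0 after subtraction of flow-through counts, and 0 to 2 with each library left out in turn. In STAT3-CKO SCI against uninjured HA IP it was 0, but 1 without a filter, 1 with the ribosomal rows left out, 1 with only both groups fitted, and 0 to 1 with libraries left out (Flt1, without animal 186). In flow-through, leaving out the filter gave 1 call in WT SCI (Flt1) and 2 in STAT3-CKO SCI (Cldn5 and Flt1), from 0. Between fractions, WT SCI gave 1 call, 2 in the fit of 22 libraries and 0 to 1 with libraries left out, and STAT3-CKO SCI gave 2, or 1 to 2 with libraries left out. Fewer genes pass a filter, so counts without one include genes not tested otherwise; other causes were not tested. The replicate block by animal gave 3.23, 2.24 and 3.55 for Mfsd2a in uninjured, WT SCI and STAT3-CKO SCI animals and changed no member's call. RLE scaling moved the median of all genes by −0.20 to 0.07, and DESeq2, which changes model and scaling together, by −0.34 to 0.15. DESeq2 moved the share of higher calls by more than 10 percentage points in STAT3-CKO SCI against uninjured (HA IP 78.7% by edgeR, 66.7% by DESeq2, 75.4% with RLE; flow-through 74.7%, 54.8% and 62.6%), the injury interaction (56.8%, 41.2% and 38.9%), in the flow-through genotype comparison (73.3% and 57.0%; 71.4% with RLE) and in the genotype interaction (1 of 4 calls by edgeR, 7 of 11 by DESeq2). Depth limits the 8 low members most: 3 counts stand for up to 32.7 CPM in the shallowest flow-through remainder.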

Other observations

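Pdgfrb, the platelet-derived growth factor receptor of pericytes, which stabilise endothelium, moved differently in the fractions. In WT SCI flow-through it rose by 2.93 ± 0.80 (edgeR adjusted p = 0.006384), with libraries at 1.02 to 5.16 CPM against 0.173 to 0.561 CPM in uninjured animals, without overlap. In HA IP its difference was −1.31 ± 0.66 (edgeR adjusted p = 0.1431). The injury effect in HA IP minus that in flow-through was −4.06 ± 1.01 (edgeR adjusted p = 0.01421), and −5.15 after subtraction of flow-through counts (adjusted p = 0.004608). It was the 1 of 11 tested pericyte genes that passed this test, beside 4.71% of all genes. On deposited counts, 1 gene of the endothelial identity, barrier and angiogenic lists passed, named after its values were seen. It was Cxcr4, the CXCL12 receptor of endothelial tip cells and leukocytes, at −5.63 ± 1.05 (edgeR adjusted p = 0.001066). After subtraction Cxcr4 was at −7.72 (edgeR adjusted p = 6.167e-05). Cd93 (−5.74, edgeR adjusted p = 0.0494), Slc3a2 (−1.63, adjusted p = 0.0438) and Esm1 (12.8, adjusted p = 0.007342) then passed too. Of all genes, 10.3% passed after subtraction. The values that follow are again from deposited counts. Marker lists of other cell types also held genes that passed. Of the astrocyte markers 6 of 10 were lower (median −1.89), and of the oligodendrocyte markers 7 of 7 were higher (median 1.60). The fit behind these values held no animal term.

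Of 8 red cell and platelet genes, 1 was tested, the platelet factor Pf4, which macrophages also express. It was higher in WT SCI than in uninjured cord by 5.39 ± 1.03 in HA IP (edgeR adjusted p = 0.0007504) and by 5.08 ± 0.89 in flow-through (adjusted p = 7.38e-05), with animal 9935 at 0 in both. In STAT3-CKO SCI it was higher by 5.44 and 5.21 (edgeR adjusted p = 0.001335 and 6.426e-05). After subtraction, its WT injury effect in HA IP minus flow-through was −4.77 with an SE of 10681.9, which is no usable estimate. Whether the Pf4 rise in HA IP rests on counts also held in flow-through was not tested. Summed over the 8 genes the level was 0.270 to 1.14 CPM outside the ribosomal rows in uninjured and 0 to 24.4 CPM in WT SCI flow-through, with 6 of the 8 genes at 0 in each of these groups.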
